A study of Mus musculus with 66 samples.

Results

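The 38 genes described here cover glucose uptake and glycolysis, the fate of pyruvate and lactate, and the hypoxia-inducible factor (HIF) with its regulators and targets. They were taken by name, and each was matched through its symbol to 1 of the 55487 Ensembl identifiers in the tables. All 38 passed the filter on low counts, as did 15421 genes in all. RNA came from E14 mouse embryonic stem cells of 3 groups: GDel2 (2 libraries), GDel1 (2 libraries) and wildtype cells, WT (3 libraries). GDel2 and GDel1 share the genotype label Praf2 G4 Deletion, and all groups were untreated and shared a medium with serum, LIF and inhibitors of GSK and MEK. The labels do not say whether each number is 1 clone, or whether replicates are separate cultures, so the p values measure the spread between these libraries, which may be technical.

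Glycolysis splits glucose into pyruvate in the cytosol, and several of its steps can be run by more than 1 enzyme of a family, each encoded by its own gene. Pyruvate then either enters the mitochondrion through pyruvate dehydrogenase, which pyruvate dehydrogenase kinases switch off, or is reduced to lactate, which leaves the cell. HIF pairs a stable beta subunit with an alpha subunit that prolyl hydroxylases mark for destruction when oxygen is present. When oxygen is short, HIF raises many glycolytic genes. Naive embryonic stem cells are known to use both glycolysis and respiration, and primed cells to rely more on glycolysis.

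Praf2 itself had 13.1 and 14.1 CPM in GDel2 and 10.1 and 9.26 CPM in GDel1, against 27.5, 28.8 and 30.6 CPM in WT. CPM are counts scaled to the library's TMM-corrected total, used here between libraries, and TPM are levels per length in transcripts scaled to a common sum, used here between genes. Libraries held 12316853 to 18762704 expected counts. Mitochondrially encoded genes took 6.19% and 9.60% of the counts in GDel2, 9.91% and 4.83% in GDel1, and 6.30% to 6.89% in WT. Between the 2 libraries of a group, counts differed most in GDel1 (chi-square per degree of freedom 67.8) and then in GDel2 (22.3), against 4.79 to 7.23 in WT. The 15 markers of embryonic stem cells summed to 1554 to 1937 TPM in GDel2, 1577 to 2239 TPM in GDel1 and 1970 to 2337 TPM in WT, and none was at 0. The 14 markers of differentiated derivatives summed to 48.6 to 49.7 TPM in GDel2, 16.2 to 17.6 TPM in GDel1 and 18.1 to 23.4 TPM in WT, and 1 of them in GDel2, 2 in GDel1 and 1 in WT had no count. Most of that sum was Tubb3, with 40.3 and 40.9 TPM in GDel2, 14.65 and 13.3 TPM in GDel1, and 14.2 to 18.6 TPM in WT. The 12 markers of fibroblast feeders summed to 2.56 to 2.97 TPM in GDel2, 0.68 to 0.80 TPM in GDel1 and 1.25 to 1.73 TPM in WT, and 5 of them in GDel2, 7 in GDel1 and 4 in WT had no count. Less RNA per cell and fewer cells of a kind cannot be told apart in such bulk RNA.

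The promoters of 5 genes on which the results turn are shown, with the core motif that HIF binds. In GDel2 against WT, Hk2 and Pdk1 rose, Pfkm and Ldhb fell, and Ldha did not pass the threshold. ACGTG or GCGTG, on either strand, was looked for from 250 bases before to 50 bases after a listed start of the gene (RefSeq, GRCm38.p6, the assembly of mm10). The capitals mark the matches. Only the 250 bases before the start are printed, 5′ to 3′ on the gene's strand. They lie at chr6:82774455-82774704, minus strand (Hk2), chr15:98092339-98092588, plus strand (Pfkm), chr7:46845554-46845803, plus strand (Ldha), chr6:142507958-142508207, minus strand (Ldhb), and chr2:71872974-71873223, plus strand (Pdk1). Where the promoter list gave several starts, the most upstream of those listed was used. It need not be the first base of the gene. The RefSeq span begins at 46842274 for Ldha and at 71873215 for Pdk1, so their listed starts lie inside it, and those of some other members do too.
Hk2: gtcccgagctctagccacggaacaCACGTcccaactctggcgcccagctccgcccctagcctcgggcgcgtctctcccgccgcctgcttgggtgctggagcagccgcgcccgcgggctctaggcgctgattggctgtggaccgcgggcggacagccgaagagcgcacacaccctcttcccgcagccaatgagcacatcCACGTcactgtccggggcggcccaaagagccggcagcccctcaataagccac
Pfkm: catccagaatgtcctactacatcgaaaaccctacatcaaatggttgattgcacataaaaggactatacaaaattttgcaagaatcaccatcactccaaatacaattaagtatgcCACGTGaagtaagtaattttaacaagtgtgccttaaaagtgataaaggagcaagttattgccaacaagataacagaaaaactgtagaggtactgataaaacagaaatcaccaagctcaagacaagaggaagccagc
Ldha: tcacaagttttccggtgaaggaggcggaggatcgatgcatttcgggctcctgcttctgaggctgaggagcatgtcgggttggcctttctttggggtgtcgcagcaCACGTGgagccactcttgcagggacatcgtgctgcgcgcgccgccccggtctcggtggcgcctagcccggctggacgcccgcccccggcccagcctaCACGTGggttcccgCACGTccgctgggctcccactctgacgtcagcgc
Ldhb: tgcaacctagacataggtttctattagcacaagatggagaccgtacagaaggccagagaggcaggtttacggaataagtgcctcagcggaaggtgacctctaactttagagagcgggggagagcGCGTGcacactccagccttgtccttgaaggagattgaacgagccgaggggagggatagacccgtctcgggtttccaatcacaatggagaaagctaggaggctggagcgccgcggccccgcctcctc
Pdk1: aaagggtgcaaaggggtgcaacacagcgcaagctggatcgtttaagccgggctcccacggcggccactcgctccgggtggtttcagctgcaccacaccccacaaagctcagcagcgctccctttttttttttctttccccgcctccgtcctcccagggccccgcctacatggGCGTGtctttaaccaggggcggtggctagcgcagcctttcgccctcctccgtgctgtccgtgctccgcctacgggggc
The whole windows held 7 matches in Ldha, 3 in Pfkm, 2 in Hk2, 2 in Pdk1 and 1 in Ldhb, where a CACGTG, the E-box that holds ACGTG on both strands, counts as 2. A promoter was listed for 35 of the 38 genes, all but Slc2a3, Bnip3l and Ndrg1. ACGTG was found in 21 of these 35 promoters (60%), against 5305 of all 27025 promoters (19.6%). Either motif was found in 28 of the 35 (80%), against 43.8% of all promoters. CACGTG was found in 6 of the 35 (17.1%), against 7.24% of all promoters. By class, either motif was found in 11 of 17 promoters of glycolysis and glucose uptake, in 8 of 8 of pyruvate and lactate, in 3 of 3 of Hif1a and the prolyl hydroxylases, and in 6 of 7 of the HIF targets outside glycolysis. These are matches of letters and not sites of binding. The members all passed the filter on low counts, whereas the 27025 promoters include those of genes that did not. No share was computed over expressed genes alone or over promoters of like base composition. Every member that rose in GDel2 against WT and had a listed promoter held a match: Hk2, Pfkp, Gapdh, Slc16a1, Slc16a3, Pdk1, Pdk3, P4ha2 and Kdm3a. Of those that fell, Pfkl, Pfkm, Aldoc, Ldhb and Pdk2 held a match, and Hk1, Gpi1 and Aldoa held none. Tpi1, Eno2, Pkm and Vegfa, which did not pass the threshold, held none either. Whether the matches go with the direction of change was not tested.

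By level per length, the 38 genes ranged widely within a library. In WT, Pkm (pyruvate kinase) had 734 ± 41.9 TPM and Gapdh (glyceraldehyde phosphate dehydrogenase) 671 ± 49.4 TPM (SD, n = 3), and their libraries overlapped. Aldoa, the main aldolase, followed with 503 ± 37.6 TPM, and Pgam1, phosphoglycerate mutase, with 346 ± 33.0 TPM. At the other end stood Eno2 (1.40 ± 0.21 TPM), the collagen prolyl hydroxylase P4ha2 (1.50 ± 0.43 TPM), Ankrd37 (1.59 ± 0.25 TPM) and the HIF prolyl hydroxylase Egln3 (1.67 ± 0.41 TPM), whose libraries overlapped. Gapdh ranked first in GDel2 (904 ± 183 TPM) and in GDel1 (638 ± 208 TPM, SD, n = 2 each), and Pkm second in both. The 2 GDel1 libraries had 491 and 786 TPM of Gapdh but 1110 and 1120 CPM, and the effective length the authors' tool gave the gene was 1034 bases in replicate 1 and 699 bases in replicate 2.

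The counting split enolase between Eno1 and Eno1b, a near-identical intronless copy. Eno1b was assigned 493 and 414 TPM in GDel2, 403 and 413 TPM in GDel1, and 487, 425 and 492 TPM in WT. Eno1 itself had 264 and 264 TPM in GDel2, 218 and 140 TPM in GDel1, and 324, 265 and 256 TPM in WT. Named copies thus held 60.0% to 74.6% of the enolase step in a library, and the values of Eno1 are uncertain to that extent. Pgam1-ps2, the copy of next highest level, held at most 11.9 TPM in any library. The other 9 copies looked for were each under 3 TPM in all 7 libraries.

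**Figure D1:**
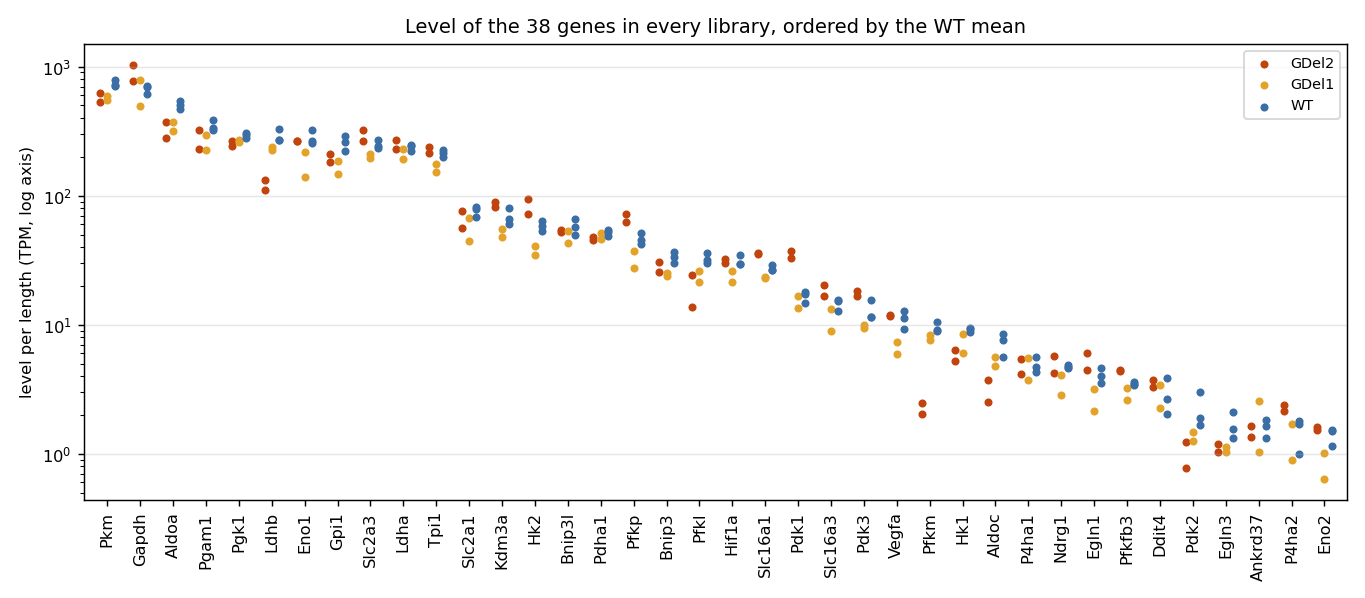
Level per length (TPM, log axis) of each of the 38 genes in every library, ordered by the WT mean; each point is 1 library of GDel2, GDel1 or WT. Pkm and Gapdh stand at the left with WT means of 734 and 671 TPM, and P4ha2 and Eno2 at the right with WT means of 1.50 and 1.40 TPM.

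In GDel2 cells, 3 of the 8 steps served by several of the genes had changes in opposite directions against WT. Among phosphofructokinases Pfkm (3.88-fold) and Pfkl fell and Pfkp rose, among hexokinases Hk1 fell and Hk2 rose, and among pyruvate dehydrogenase kinases Pdk2 fell and Pdk1 (2.03-fold) and Pdk3 rose. Ldhb fell 2.16-fold while Ldha was not called, both aldolases, Aldoa and Aldoc, fell, and both lactate transporters, Slc16a1 and Slc16a3, rose. In all, 10 of the 38 members were higher and 8 were lower in GDel2 than in WT (edgeR, adjusted p under 0.05), where 33.1% of all genes tested were called, 17.4% higher and 15.6% lower. Their median log2 fold change was 0.016, beside 0.010 for all genes. The libraries of the groups did not overlap for 24 of the 38, beside 63.2% of all genes. Of 7 tested markers of differentiated derivatives, 6 were higher and 1 was lower in GDel2 than in WT. The part of differentiated cells in the changes of the members was not tested.

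By class, glycolysis and glucose uptake had 4 genes higher and 6 lower of 18, and pyruvate and lactate 4 higher and 2 lower of 8. None of Hif1a, Egln1 and Egln3 was called, and of the 9 HIF targets outside glycolysis 2 were higher and none was lower. Of the 18 calls, 9 held in each of the 7 fits that left out 1 library, namely Hk1, Hk2, Pfkm, Aldoa, Aldoc, Gapdh, Ldhb, Pdk1 and Pdk2. Without GDel2 replicate 2, 10 members and 2713 genes were called, and without WT replicate 2, 14 members and 3375 genes. DESeq2 called 17 members, beside 26.1% of all genes. With limma on log2(TPM + 1), 8 of the 18 were called, with Pdk1 higher and Hk1, Pfkl, Pfkm, Aldoa, Aldoc, Ldhb and Pdk2 lower, beside 852 genes higher and 1060 lower.

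**Figure D2:**
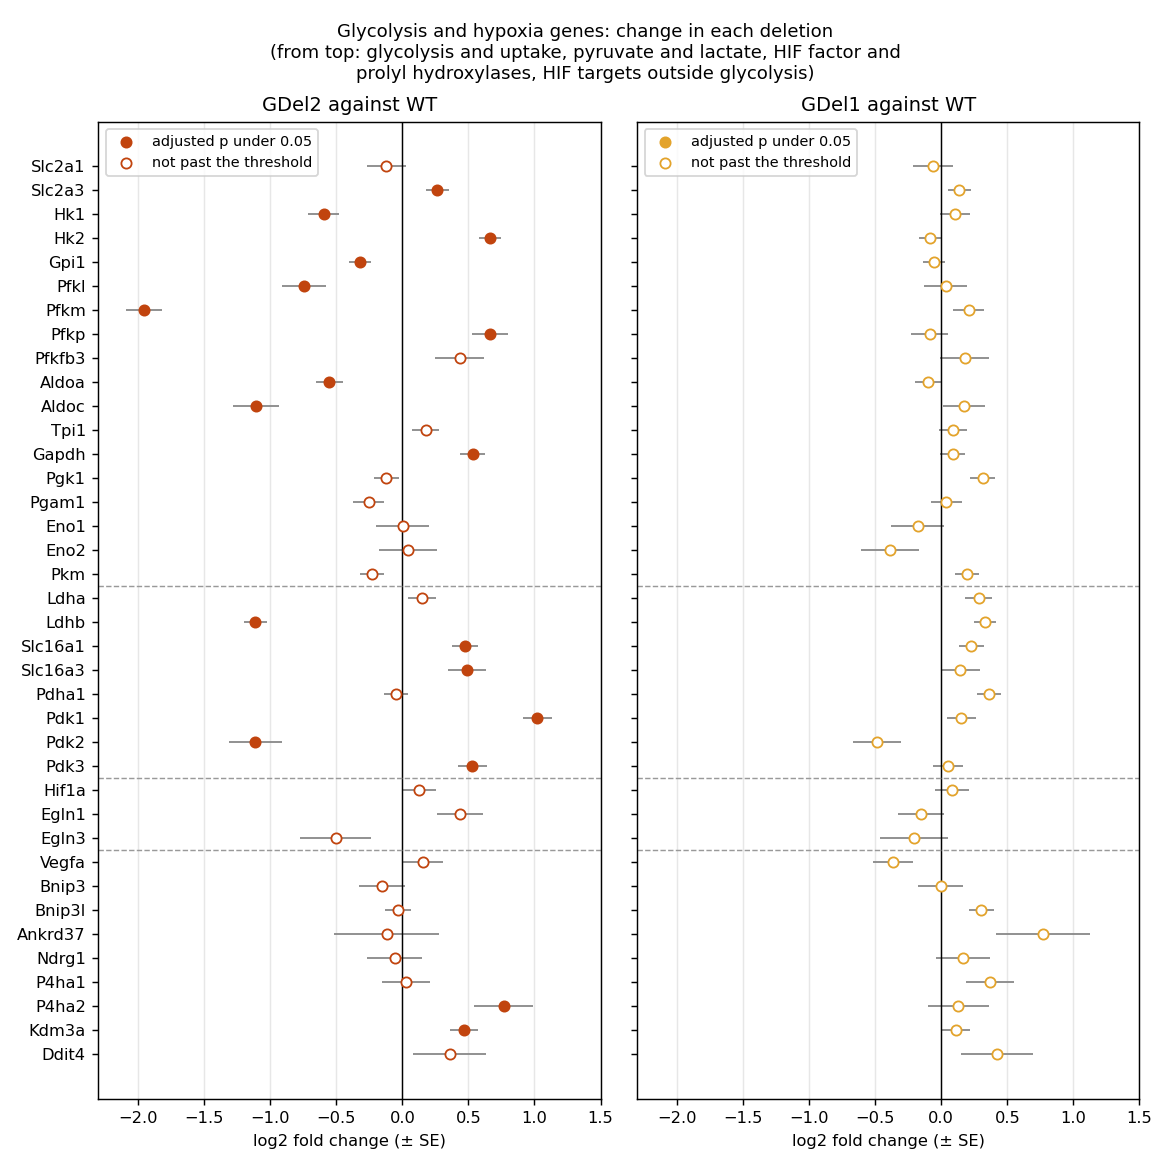
Log2 fold change of the 38 genes in GDel2 against WT (left) and in GDel1 against WT (right); bars are ± SE from edgeR and filled points passed an adjusted p of 0.05. In GDel2 18 points are filled, from Pfkm at -1.96 to Pdk1 at 1.02, and in GDel1 none is.

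Glucose enters through the transporters encoded by Slc2a1 and Slc2a3. Slc2a3, the more abundant and on chromosome 6, had 1648 and 1606 CPM in GDel2, 1461 and 1515 CPM in GDel1, and 1322, 1341 and 1402 CPM in WT. Both GDel2 libraries lay above all others, and Slc2a3 rose by a log2 fold change of 0.26 ± 0.087 (SE) against WT (adjusted p = 0.0457). That call was lost without either GDel2 library or any 1 of the WT libraries (adjusted p 0.104 to 0.177). Slc2a1 had 295 and 251 CPM in GDel2, 242 and 327 CPM in GDel1, and 272, 282 and 336 CPM in WT, with all groups overlapping.

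Hexokinase traps glucose in the cell as its phosphate. Hk2, the inducible form, on chromosome 6, had 614 and 573 CPM in GDel2, 341 and 367 CPM in GDel1, and 366, 379 and 381 CPM in WT. Hk1, the form found in most tissues, had 36.2 and 35.1 CPM in GDel2, 51.0 and 64.5 CPM in GDel1, and 50.7, 54.4 and 56.2 CPM in WT. The 2 genes thus went opposite ways in GDel2 with no overlap with WT: Hk2 rose 1.58-fold (log2 0.66 ± 0.083, adjusted p = 0.000561) and Hk1 fell by 0.59 ± 0.12 in log2 units (adjusted p = 0.00521). Gpi1, which turns glucose phosphate into fructose phosphate, had 334 and 318 CPM in GDel2, 402 and 384 CPM in GDel1, and 401, 395 and 426 CPM in WT. Gpi1 fell by 0.32 ± 0.083 in log2 units (adjusted p = 0.0178), a call lost without GDel2 replicate 2 or without any 1 WT library (adjusted p 0.0577 to 0.105).

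Phosphofructokinase commits sugar to glycolysis, and its subunits are named for muscle (Pfkm), liver (Pfkl) and platelet (Pfkp). Pfkm had 8.37 and 11.6 CPM in GDel2, 44.1 and 45.4 CPM in GDel1, and 38.1, 39.2 and 39.1 CPM in WT. This was the largest change among the 38 genes in this comparison: Pfkm fell 3.88-fold (log2 -1.96 ± 0.14, adjusted p = 3.75e-05). Pfkl had 73.7 and 61.3 CPM in GDel2, 93.6 and 137 CPM in GDel1, and 105, 113 and 121 CPM in WT, while Pfkp had 444 and 412 CPM in GDel2, 217 and 290 CPM in GDel1, and 241, 268 and 299 CPM in WT. Both GDel2 libraries were below all others for Pfkl and above all others for Pfkp. Pfkl fell by 0.74 ± 0.17 in log2 units (adjusted p = 0.0101), a call lost without GDel2 replicate 2 (adjusted p = 0.0946). Pfkp rose by 0.67 ± 0.14 (adjusted p = 0.00626), a call lost without GDel2 replicate 1 (adjusted p = 0.0633). Pfkfb3, whose product makes the activator of phosphofructokinase, had 19.2 and 16.3 CPM in GDel2, 13.4 and 16.1 CPM in GDel1, and 10.1, 13.4 and 15.7 CPM in WT. Its GDel2 libraries did not overlap those of WT, but the difference of 0.43 ± 0.19 missed the threshold (adjusted p = 0.106).

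Aldolase splits the phosphorylated sugar, and Aldoa supplied 98.3% to 99.1% of its TPM in every library. Aldoa had 758 and 663 CPM in GDel2, 934 and 1012 CPM in GDel1, and 1001, 1035 and 1090 CPM in WT. Aldoc, the brain form, had 5.21 and 5.06 CPM in GDel2, 11.99 and 12.96 CPM in GDel1, and 11.1, 9.15 and 12.9 CPM in WT. Both fell in GDel2 without overlap with WT, Aldoa by 0.55 ± 0.10 (adjusted p = 0.00346) and Aldoc by 1.11 ± 0.18 in log2 units (adjusted p = 0.00179).

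Of the 7 genes from triose phosphate to pyruvate (Tpi1, Gapdh, Pgk1, Pgam1, Eno1, Eno2 and Pkm), Gapdh alone was called against WT. Gapdh had 1491 and 1544 CPM in GDel2, 1110 and 1120 CPM in GDel1, and 1051, 977 and 1121 CPM in WT. It rose by 0.53 ± 0.093 on the log2 scale in GDel2 (adjusted p = 0.00294), and both GDel2 libraries were above all others. Gapdh lies on chromosome 6, whose median change was 0.51 in GDel2. Tpi1, triose phosphate isomerase, had 513 and 534 CPM in GDel2, 541 and 444 CPM in GDel1, and 437, 464 and 489 CPM in WT. Pgk1, phosphoglycerate kinase, had 664 and 703 CPM in GDel2, 943 and 904 CPM in GDel1, and 691, 754 and 784 CPM in WT. Neither was called against WT (adjusted p = 0.238 for Tpi1 and 0.358 for Pgk1), though both GDel2 libraries lay above WT for Tpi1. Pgam1 had 793 and 653 CPM in GDel2, 803 and 966 CPM in GDel1, and 855, 860 and 870 CPM in WT. Pkm had 1467 and 1413 CPM in GDel2, 1928 and 1941 CPM in GDel1, and 1649, 1676 and 1745 CPM in WT. For both the GDel2 libraries lay below WT, but neither passed, with -0.25 ± 0.12 for Pgam1 (adjusted p = 0.130) and -0.23 ± 0.089 for Pkm (adjusted p = 0.0760). Eno1 had 713 and 833 CPM in GDel2, 860 and 504 CPM in GDel1, and 792, 779 and 742 CPM in WT, and Eno2 had 2.82 to 5.05 CPM over all libraries. GDel2 and WT overlapped for both enolases.

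Lactate dehydrogenase is a tetramer of A and B subunits, and the B form, encoded by Ldhb, favours the reaction from lactate to pyruvate. Ldhb had 92.2 and 86.7 CPM in GDel2, 233 and 253 CPM in GDel1, and 191, 193 and 197 CPM in WT. It fell 2.16-fold in GDel2 (log2 -1.11 ± 0.085, adjusted p = 5.75e-05), with GDel2 and WT far apart. Ldha, a classical HIF and Myc target, had 576 and 564 CPM in GDel2, 585 and 664 CPM in GDel1, and 468, 509 and 562 CPM in WT. Both GDel2 libraries of Ldha lay just above the highest of WT, but the difference of 0.15 ± 0.10 missed the threshold (adjusted p = 0.306), with a 95% interval from -0.054 to 0.36.

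Lactate leaves through the monocarboxylate transporters Slc16a1 and Slc16a3, the second of them the form of highly glycolytic tissues. Slc16a1 had 231 and 269 CPM in GDel2, 220 and 202 CPM in GDel1, and 170, 185 and 185 CPM in WT. Slc16a3 had 51.4 and 50.2 CPM in GDel2, 34.4 and 45.3 CPM in GDel1, and 33.9, 32.5 and 42.0 CPM in WT. Both GDel2 libraries were above all others for both genes. Slc16a1 rose by 0.47 ± 0.097 (adjusted p = 0.00627), a call lost without GDel2 replicate 2 (adjusted p = 0.0576). Slc16a3 rose by 0.49 ± 0.15 (adjusted p = 0.0311), a call lost without either GDel2 library, WT replicate 1 or WT replicate 2 (adjusted p 0.102 to 0.154).

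Pyruvate dehydrogenase kinases divert pyruvate from the mitochondrion, and Pdk1 is the best known HIF target among them. Pdk1 had 140 and 160 CPM in GDel2, 82.3 and 81.5 CPM in GDel1, and 64.5, 77.1 and 79.5 CPM in WT. Pdk2 had 3.16 and 2.31 CPM in GDel2, 4.03 and 4.37 CPM in GDel1, and 5.96, 5.38 and 6.35 CPM in WT, and Pdk3 had 52.0 and 57.6 CPM in GDel2, 42.4 and 36.4 CPM in GDel1, and 41.7, 37.0 and 35.4 CPM in WT. Pdk1 rose 2.03-fold in GDel2 (log2 1.02 ± 0.11, adjusted p = 0.000258), the largest rise among the 38 genes in this comparison. Pdk3 rose by 0.53 ± 0.11 (adjusted p = 0.00705), a call lost without GDel2 replicate 2 (adjusted p = 0.0638), and Pdk2 fell by 1.11 ± 0.20 in log2 units (adjusted p = 0.00320). Pdha1, the catalytic subunit of the enzyme they act on, had 188 and 210 CPM in GDel2, 261 and 269 CPM in GDel1, and 195, 205 and 219 CPM in WT. GDel2 and WT overlapped for Pdha1 (-0.051 ± 0.091, adjusted p = 0.703).

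**Figure D3:**
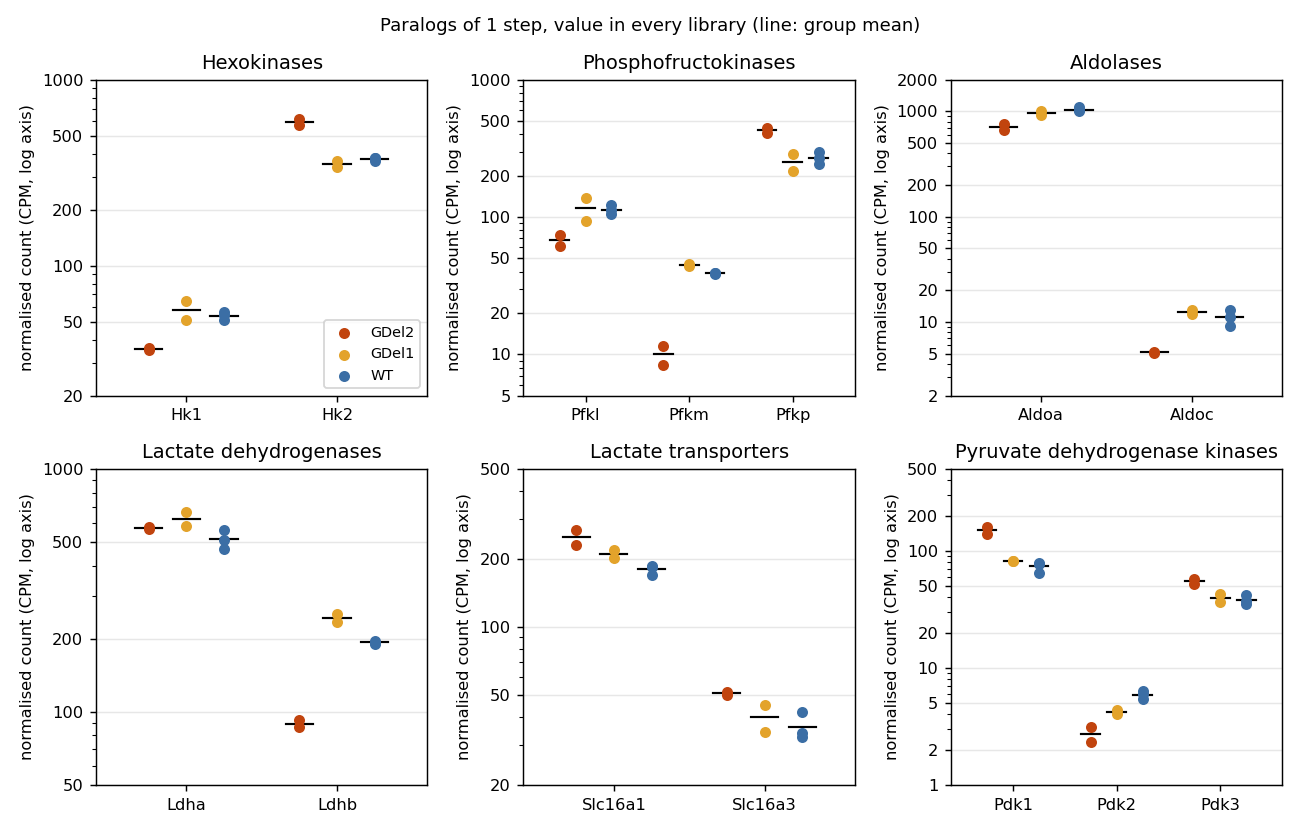
Normalised counts (CPM, log axis) of the genes that share a step, in every library of GDel2, GDel1 and WT; lines are group means. GDel2 stands below the other groups for Hk1, Pfkl, Pfkm, Aldoa, Aldoc, Ldhb and Pdk2 and above them for Hk2, Pfkp, Slc16a1, Slc16a3, Pdk1 and Pdk3.

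The share that each gene held in its step does not depend on scaling between libraries. In phosphofructokinase, Pfkp held 73.4% and 79.4% of the summed TPM in GDel2, 48.7% and 52.2% in GDel1, and 49.5%, 51.7% and 55.8% in WT, while Pfkm held 2.07% and 3.12% in GDel2, 13.5% and 11.6% in GDel1, and 11.3%, 11.1% and 9.95% in WT. The summed TPM of the step was 98.1 and 78.9 in GDel2, 56.5 and 71.8 in GDel1, and 91.9, 81.2 and 92.2 in WT, so the shares of GDel2 and WT stood apart while their sums overlapped. In lactate dehydrogenase, Ldha held 67.4% and 67.2% in GDel2, 44.6% and 50.4% in GDel1, and 42.3%, 45.0% and 47.6% in WT. By TPM, Ldha thus outweighed Ldhb in both GDel2 libraries and in GDel1 replicate 2, and Ldhb outweighed Ldha in the other 4. That order rests on effective lengths of 420 to 547 bases for Ldhb, against 1390 to 1411 bases for Ldha. The length given to Ldhb was 451 bases in GDel1 replicate 1 and 547 bases in GDel1 replicate 2. By CPM, Ldha was above Ldhb in every library. Hk1 held 6.33% and 6.77% of hexokinase in GDel2, 14.9% and 17.2% in GDel1, and 12.9%, 13.2% and 14.9% in WT. Among the 3 kinases, Pdk1 held 65.6% ± 0.36 in GDel2, 57.6% ± 4.45 in GDel1 (SD, n = 2 each) and 52.7% ± 7.34 in WT (SD, n = 3). In each of these 4 steps the GDel2 libraries lay outside the range of the other 5. The shares of the lactate transporters overlapped instead, with Slc16a1 at 63.7% and 67.8% in GDel2, 72.3% and 63.8% in GDel1, and 65.0%, 67.5% and 63.8% in WT. The shares are given as a description, and no test was run on them.

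**Figure D4:**
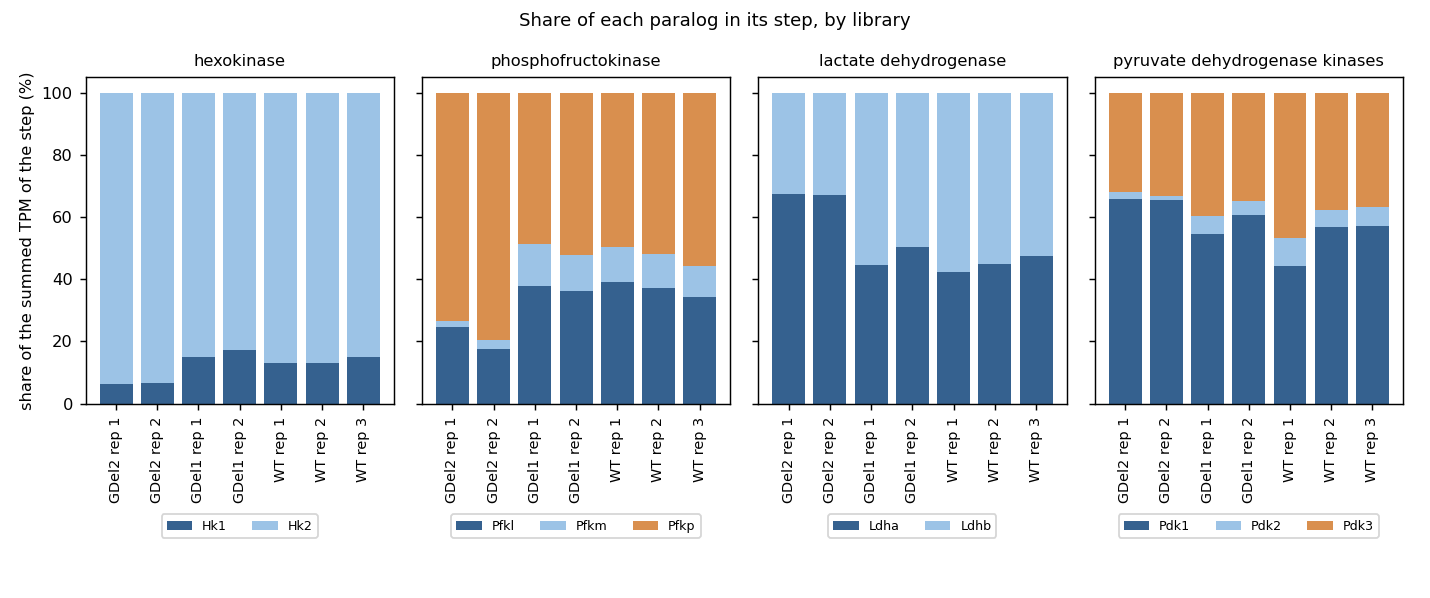
Share (%) of each gene in the summed TPM of its step, 1 bar per library, for hexokinase, phosphofructokinase, lactate dehydrogenase and the pyruvate dehydrogenase kinases. Both GDel2 bars show more Hk2, Pfkp, Ldha and Pdk1 than the GDel1 and WT bars.

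HIF and its sensors did not pass the threshold in GDel2 against WT. Hif1a, the oxygen-regulated subunit, had 198 and 237 CPM in GDel2, 240 and 182 CPM in GDel1, and 199, 206 and 194 CPM in WT. The difference of 0.12 ± 0.13 had a 95% interval from -0.13 to 0.38 (adjusted p = 0.503), and RNA says nothing of the protein, which oxygen controls. Egln1, the main oxygen sensor, had 31.5 and 27.0 CPM in GDel2, 16.3 and 22.3 CPM in GDel1, and 18.9, 20.2 and 25.6 CPM in WT. Its GDel2 libraries were above all others, but the difference of 0.44 ± 0.17 missed the threshold (adjusted p = 0.0833). Egln3, itself a HIF target, had 3.95 and 5.35 CPM in GDel2, 5.72 and 5.73 CPM in GDel1, and 4.56, 6.49 and 8.61 CPM in WT, with overlap of GDel2 and WT.

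Among the 9 HIF targets outside glycolysis, P4ha2 and Kdm3a rose in GDel2. P4ha2, a collagen prolyl hydroxylase, had 5.37 and 4.77 CPM in GDel2, 2.74 and 3.69 CPM in GDel1, and 2.43, 2.85 and 3.57 CPM in WT. Both GDel2 libraries were above all others, and P4ha2 rose by 0.77 ± 0.22 (adjusted p = 0.0291), a call lost without either GDel2 library, WT replicate 1 or WT replicate 2 (adjusted p 0.0872 to 0.149), and with DESeq2 (adjusted p = 0.0916). Kdm3a, a histone H3 lysine demethylase on chromosome 6, had 455 and 471 CPM in GDel2, 401 and 324 CPM in GDel1, and 333, 350 and 321 CPM in WT. Both GDel2 libraries were again above all others, and Kdm3a rose by 0.47 ± 0.10 (adjusted p = 0.00945), a call lost without GDel2 replicate 2 (adjusted p = 0.0642). Vegfa, the angiogenic growth factor, had 19.6 and 22.0 CPM in GDel2, 14.6 and 14.4 CPM in GDel1, and 15.97, 17.6 and 22.2 CPM in WT, and GDel2 overlapped WT.

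The other 6 targets were not called against WT and their GDel2 libraries overlapped those of WT. Among them Bnip3l had 94.6 and 109 CPM in GDel2, 135 and 122 CPM in GDel1, and 102, 102 and 109 CPM in WT, with GDel1 above all others. The 6 are Bnip3 and Bnip3l, which mark mitochondria for removal, Ankrd37, Ndrg1, the collagen prolyl hydroxylase P4ha1, and Ddit4, an inhibitor of mTORC1. Their log2 fold changes in GDel2 against WT ran from -0.15 ± 0.17 for Bnip3 to 0.36 ± 0.28 for Ddit4. Ankrd37 was the least precise, with 1.30 to 3.90 CPM over all libraries and a 95% interval from -0.90 to 0.66 in that comparison. The median of the 9 targets was 0.028 in GDel2 against WT, beside -0.12 for the 18 genes of glycolysis and glucose uptake, 0.31 for the 8 of pyruvate and lactate and 0.010 for all genes.

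Position on the chromosome moved with several of these values. In GDel2 against WT the median log2 fold change was 0.51 over the 658 genes tested on chromosome 6 and 0.44 over the 712 on chromosome 8. It was between -0.13 and 0.10 on the other autosomes and the X chromosome. On the Y chromosome, where no member lies, it was -9.13 over 6 genes, 5 of them called lower. On chromosome 11, 26.15% of the 1090 genes tested were called higher and 14.04% lower. Of the members there, Slc16a3 and P4ha2 rose and Aldoc and Pdk2 fell. On chromosome 6 lie 7 members, of which Slc2a3, Hk2, Gapdh and Kdm3a rose and Ldhb fell, and Tpi1 and Eno2 were not called. Less the median of chromosome 6, the change was 0.026 for Gapdh, -0.038 for Kdm3a, 0.16 for Hk2, -0.24 for Slc2a3 and -1.62 for Ldhb. Of these 4 rises only that of Hk2 was thus more than 0.1 above the chromosome's own shift, and the fall of Ldhb was greater beside it. Egln1 and Ankrd37 lie on chromosome 8, and Egln1, at 0.44, was -0.0077 from its median. Of the 29 members elsewhere, 6 were higher (Pfkp, Slc16a1, Slc16a3, Pdk1, Pdk3 and P4ha2) and 7 lower (Hk1, Gpi1, Pfkl, Pfkm, Aldoa, Aldoc and Pdk2). The part of the chromosomes' shifts in single genes was not tested. In GDel1 against WT the medians of chromosomes 6 and 8 were -0.0090 and -0.011.

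**Figure D5:**
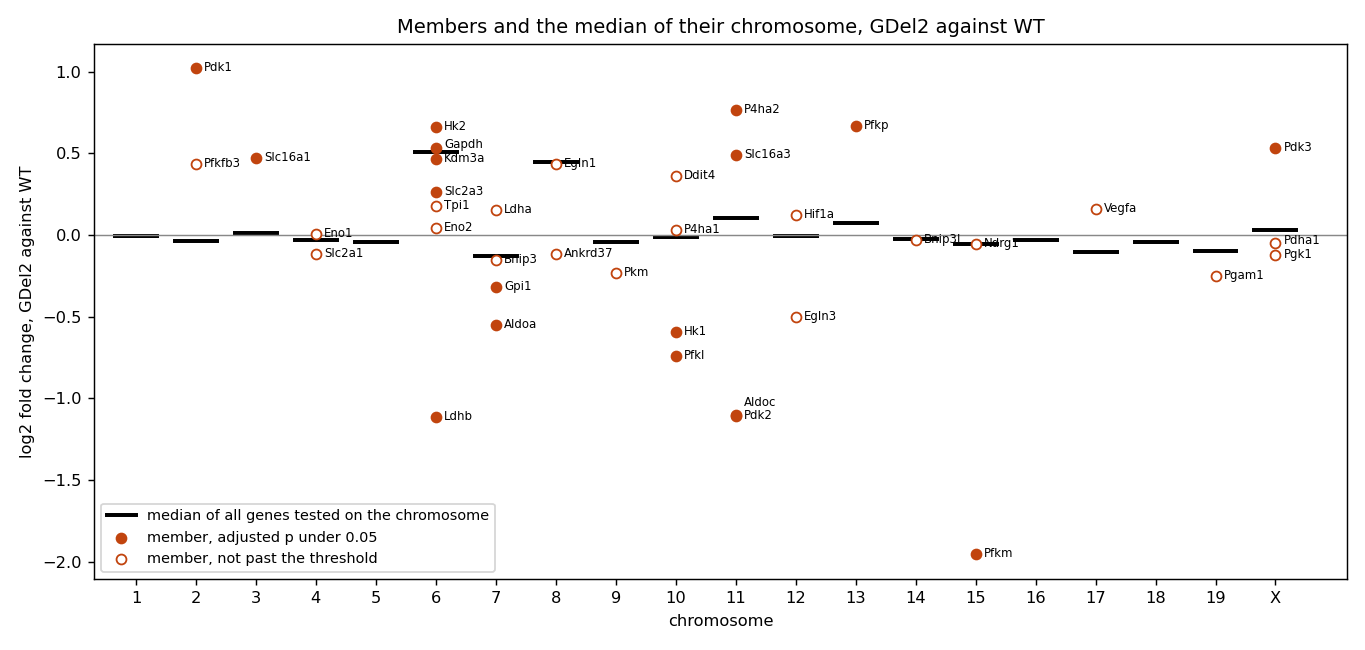
Log2 fold change of each member in GDel2 against WT (points, filled where the adjusted p was under 0.05), placed by chromosome, with the median of all genes tested on that chromosome as a bar. The bars of chromosomes 6 and 8 stand at 0.51 and 0.44; Gapdh, Kdm3a and Egln1 lie on them, and Ldhb lies far below.

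In GDel1 cells no member was called against WT by edgeR, where 0.376% of all genes were called. With an unadjusted p under 0.05 by edgeR there were 8 members, beside 3776 of all 15421 genes. DESeq2 called 3 members (Ldhb, Pdha1 and Pgk1, all higher), beside 6.32% of all genes by that tool. The lowest adjusted p by edgeR were 0.0663 for Ldhb (0.33 ± 0.081) and 0.0687 for Pdha1 (0.36 ± 0.090), with all GDel1 libraries above all WT libraries for both. The members had a median of 0.11, beside 0.0026 for all genes, and for 13 of the 38 the groups did not overlap, beside 43.5% of all genes. The 4 genes with the largest falls in GDel2 had log2 differences of 0.21 ± 0.12 (Pfkm), 0.33 ± 0.081 (Ldhb), -0.49 ± 0.18 (Pdk2) and 0.18 ± 0.16 (Aldoc) in GDel1, against the same WT libraries. Without GDel1 replicate 1, edgeR called 5 members (Ankrd37, Ldha, Ldhb and Pdha1 higher, Eno1 lower) and 1968 genes, and over the fits that left out another library it called no member and 4 to 801 genes. With TPM in place of scaled counts the median of all genes shifts by -0.37 and that of the members to -0.37, and 24 members, none of them called on either scale, change sign. Limma on log2(TPM + 1) called 4 members, Eno1, Gpi1, Hk2 and Vegfa, all lower in GDel1, as were 3195 of the 3228 genes it called.

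GDel2 and GDel1 differed for 17 of the 38 members, 7 higher and 10 lower in GDel2, where edgeR called 27.7% of all genes, 14.8% higher and 12.8% lower. With limma on log2(TPM + 1), 11 members were called, 9 higher and 2 lower in GDel2, and 2726 genes were higher and 309 lower, so the split between directions depends on the scale. DESeq2 called 16 members, beside 21.8% of all genes. The libraries did not overlap for 31 of the 38, beside 59.1% of all genes. Pfkm fell by 2.16 ± 0.15 in log2 units (adjusted p = 4.24e-05), Ldhb fell by 1.44 ± 0.092 (adjusted p = 3.48e-05), Aldoc fell by 1.28 ± 0.19 (adjusted p = 0.00161) and Hk1 fell by 0.70 ± 0.13 (adjusted p = 0.00440). Pdk1 rose by 0.87 ± 0.12 (adjusted p = 0.00130), Pfkp by 0.75 ± 0.15 (adjusted p = 0.00697) and Hk2 by 0.75 ± 0.093 (adjusted p = 0.000693). The GDel2 libraries stand in this comparison and in that with WT, so the 2 are not independent.

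Also among the 17, Pgk1 fell by 0.43 ± 0.10, Pkm by 0.43 ± 0.097, Pdha1 by 0.41 ± 0.10 and Bnip3l by 0.34 ± 0.10 on the log2 scale, while Egln1 rose by 0.59 ± 0.19 and Vegfa by 0.52 ± 0.17. For Pgk1, Pkm, Pdha1 and Bnip3l both GDel1 libraries were the highest of the 7. The other 4 of the 17 were Pfkl and Aldoa, lower in GDel2, and Gapdh and Pdk3, higher in GDel2. Directions for Pkm and Bnip3l flip with TPM in place of scaled counts.

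Of the 17 calls against GDel1, 6 held in each of the 7 fits that left out 1 library, namely Hk1, Hk2, Pfkm, Aldoc, Ldhb and Pdk1. Without GDel2 replicate 1, 10 members and 2839 genes were called, and the calls of Pfkp, Pgk1 and Pdha1 were lost (adjusted p 0.0574 to 0.0727). Without GDel2 replicate 2, 10 members and 2639 genes were called, and those of Pfkl, Aldoa and Pkm were lost (adjusted p 0.0693 to 0.0952). Gapdh was lost without either GDel2 library (adjusted p 0.0522 and 0.0656), and Pdk3 without GDel2 replicate 2 or GDel1 replicate 2 (adjusted p 0.107 and 0.0629). Egln1 was lost without either GDel2 library, GDel1 replicate 1, or WT replicate 1 or 2 (adjusted p 0.0636 to 0.254). Vegfa was lost in every such fit but that without WT replicate 3 (adjusted p 0.0501 to 0.193), and Bnip3l in every one but those without GDel2 replicate 2 or GDel1 replicate 2 (adjusted p 0.0794 to 0.137).

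When GDel2 and GDel1 were joined as both deletions against WT, edgeR called no member and no gene (0% of all genes; 3 members and 2930 genes at an unadjusted p under 0.05), and DESeq2 called no member and 948 genes (6.15%). The spread between the deletions counts as error there. The 3 members with an unadjusted p under 0.05 were Pdk2 (-0.76 ± 0.24, adjusted p = 0.182), Slc16a1 (0.36 ± 0.11, adjusted p = 0.187) and Pdk1 (0.65 ± 0.26, adjusted p = 0.231). For 5 of the 38 members, the 4 deletion libraries did not overlap those of WT, beside 21.7% of all genes. They are Slc2a3, Ldha, Slc16a1 and Pdk1, with all deletion libraries higher, and Pdk2, with all of them lower.

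Other genes of the same pathways are to be read beside the 33.1% of all genes called in GDel2 against WT. Of 11 other glycolysis genes tested, 3 were higher in GDel2 than in WT and none was lower. The product of Tigar lowers the activator of phosphofructokinase that the product of Pfkfb3 makes. Tigar averaged 148 ± 5.67 CPM in GDel2 (SD, n = 2) and 83.8 ± 2.42 CPM in WT (SD, n = 3), a rise of 0.82 ± 0.080 in log2 units (adjusted p = 0.000155). Bpgm, which makes bisphosphoglycerate, averaged 17.6 ± 2.27 CPM in GDel2 and 8.24 ± 0.76 CPM in WT (1.10 ± 0.14, adjusted p = 0.000554), and both genes lie on chromosome 6. Of 13 other genes of pyruvate and lactate, 2 were higher and 3 lower: Pdp2, a phosphatase that opposes the kinases, rose by 0.83 ± 0.083 (adjusted p = 0.000173, on chromosome 8), and Ldhc, the testis form, fell by 2.30 ± 0.33 (adjusted p = 0.00102) at levels under 2 CPM.

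Of 12 HIF factors and regulators, 3 were higher (Cited2, Vhl and Arnt2) and 2 lower (Hif3a and Arnt) in GDel2 than in WT by edgeR. Arnt fell by 0.54 ± 0.078 in log2 units (adjusted p = 0.00114). Arnt2 rose by 1.34 ± 0.36 (adjusted p = 0.0212), with means of 3.99 CPM in GDel2 and 1.58 CPM in WT. Vhl, on chromosome 6, rose by 0.56 ± 0.093 (adjusted p = 0.00235). Cited2, which competes with HIF for its coactivators, averaged 42.2 ± 1.76 CPM in GDel2 (SD, n = 2) and 14.8 ± 1.84 CPM in WT (SD, n = 3), a rise of 1.50 ± 0.14 in log2 units (adjusted p = 0.000115). Hif3a, an alpha subunit that can oppose the others, averaged 12.8 ± 3.89 CPM in GDel2 and 32.9 ± 0.70 CPM in WT, a fall of 1.37 ± 0.18 (adjusted p = 0.000719). Of 31 other HIF targets, 9 were higher and 5 lower, with a median of 0.12. Hmox1, heme oxygenase, rose by 1.14 ± 0.12 (adjusted p = 0.000278, on chromosome 8), with 102 ± 6.67 CPM in GDel2 and 46.1 ± 1.16 CPM in WT. Against GDel1, the same 4 lists had 3, 2, 3 and 8 genes higher and 0, 4, 3 and 3 lower in GDel2. These counts are to be read beside the 27.7% of all genes called between GDel2 and GDel1, 14.8% higher and 12.8% lower. No gene of these 4 lists was called in GDel1 against WT by edgeR, where 1, 6, 3 and 6 of them had an unadjusted p under 0.05. Of all 15421 genes tested, 3776 had such a p in that comparison.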

How the data were processed

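RNA-seq libraries of E14 mouse embryonic stem cells were analysed: 2 of GDel2, 2 of GDel1 and 3 of WT, with 59 other samples of the series not analysed here. Per the labels' protocols, Trizol RNA went into directional libraries once ribosomal RNA was removed. The submitters' processing notes name STAR, RSEM, Bowtie2, deepTools, HiC-Pro and mm10. Which strand was counted and which annotation was used is not stated in these sources, so reads of overlapping antisense genes may be shared.

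Per the file headers, the deposited tables give the authors' expected count, TPM and FPKM per gene. The expected counts, of which 6.91% to 8.22% were not whole, were rounded to whole numbers. The deposited TPM were used for levels between genes and for shares within a step, and the deposited FPKM were read but carry no result.

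Genes passing filterByExpr (minimum count 10, minimum total 15) were fitted with edgeR 4.0.16 (R 4.3.3; TMM, robust quasi-likelihood F test), with 3 groups and again with both deletions as 1. Those genes held 99.9% of the counts. Adjusted p values are Benjamini-Hochberg values over all 15421 genes, with 0.05 as the threshold, and SE is the log2 fold change over the root of F. Alternatives were DESeq2 1.42.0, limma 3.58.1 on log2(TPM + 1) and log2(TPM + 0.1), RLE scaling, other filters, a replicate block and each library left out. The fit was tested on counts simulated with a single dispersion for all genes and libraries. Such counts lack the unequal spread between the groups seen here, so that test cannot show how the fit handles it. Aldoa has 2 identifiers, and the one with more counts was used.

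The 38 members and the other gene lists were chosen with earlier results of these data known. All 38 are named. Values in every library are given for members called in any comparison and for the main gene of each step. From other lists up to 2 called genes of lowest p are named, and all called HIF factors and regulators in GDel2 against WT. Markers and retrocopies came from the same lists.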

Additional observations from a re-analysis of the deposited data

Results flagged for a closer look

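The 2 deletions carry 1 genotype label, and 17 members differed between GDel2 and GDel1 by edgeR (adjusted p under 0.05), which is what singles them out here. Their log2 differences, GDel2 minus GDel1, were -2.16 for Pfkm, -1.44 for Ldhb, -1.28 for Aldoc, -0.78 for Pfkl, -0.70 for Hk1, -0.45 for Aldoa, -0.43 for Pgk1, -0.43 for Pkm, -0.41 for Pdha1 and -0.34 for Bnip3l, all lower in GDel2. Higher in GDel2 were Pdk1 (0.87), Pfkp (0.75), Hk2 (0.75), Egln1 (0.59), Vegfa (0.52), Pdk3 (0.48) and Gapdh (0.44). Since 27.7% of all genes differed between the deletions, such a difference is common in these libraries. Hk2 and Gapdh lie on chromosome 6 and Egln1 on chromosome 8, the chromosomes of raised median in GDel2. Why the deletions differ was not tested.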

How the results depend on the processing

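For GDel2 against WT, limma on log2(TPM + 1) and log2(TPM + 0.1) called 1912 and 1752 genes and 8 and 7 members, and the replicate block 2296 genes and 8 members. Leaving out 1 library gave 2713 to 6531 genes and 10 to 21 members. For GDel1 against WT, DESeq2 called 975 genes and 3 members, limma on TPM 3228 and 3311 genes and 4 members each, no filter 2357 genes and 3 members, the stricter filter 34 genes, and the replicate block 1 gene. Without GDel1 replicate 1 and GDel2 replicate 2 together it was 4252 genes and 14 members, and without 1 library 4 to 1968 genes and 0 to 5 members. For GDel2 against GDel1, limma on TPM called 11 members with either pseudocount, the replicate block 2235 genes and 7 members, and leaving out 1 library 2639 to 5586 genes and 10 to 18 members. For both deletions against WT, DESeq2 called 948 genes, limma 5 with either pseudocount and no filter 1, with no member in any of them and 0 genes without any 1 library. Pkm and Bnip3l reversed between GDel2 and GDel1 with TPM (0.0090 and 0.0090 for Pkm, 0.16 and 0.17 for Bnip3l), neither called there; in that comparison the median of all genes shifts to 0.29 with TPM + 1. With copies, the WT enolase step is 751 TPM in place of 283. Deviations from the group means correlated at -0.208 to 0.104 between libraries of the same replicate number. Those of GDel2 replicate 1 and GDel1 replicate 2 correlated at 0.208. The deviations of 2 libraries in a group mirror each other, so these values cannot show whether the replicate numbers pair the libraries. Counting strand and read sharing between copies limit single genes, and 2 libraries per deletion limit what can pass. The causes of these shifts were not tested.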

Other observations

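The pentose phosphate pathway branches from glycolysis to make ribose and NADPH. Of its 9 genes tested, 4 were higher and 1 was lower in GDel2 than in WT by edgeR, and this and the counts that follow are to be read beside the 33.1% of all genes called, 17.4% higher and 15.6% lower. Rpe, ribulose phosphate epimerase, fell by 1.21 ± 0.10 in log2 units (adjusted p = 9.80e-05), with 25.8 ± 3.15 CPM in GDel2 (SD, n = 2) and 59.7 ± 2.24 CPM in WT (SD, n = 3). Pgls, which opens the lactone made by the first enzyme, rose by 1.11 ± 0.15 (adjusted p = 0.000837) and lies on chromosome 8. Of 10 glycogen genes, none was higher and 2 were lower, among them Gys1, glycogen synthase, which fell by 0.78 ± 0.12 (adjusted p = 0.00155).

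Of 11 factors that respond to glucose or belong with Myc, 1 was higher and 3 were lower in GDel2 than in WT. Mycl fell by 1.72 ± 0.13 in log2 units (adjusted p = 5.22e-05), to 15.4 ± 0.74 CPM in GDel2 against 50.7 ± 2.07 CPM in WT. Myc itself rose by 0.91 ± 0.18 (adjusted p = 0.00486), with 16.1 ± 4.31 CPM in GDel2 and 8.58 ± 0.51 CPM in WT. Of the 15 markers of embryonic stem cells 4 were higher and 5 lower, and of 7 tested markers of differentiated derivatives 6 were higher, Eomes by 1.94 ± 0.14 and Tubb3 by 1.49 ± 0.084, and 1 lower. Tubb3 and Sox1, both among the 6, lie on chromosome 8, whose median change was 0.44. Thy1 was the 1 of 3 tested feeder markers called, at 2.45 ± 0.12 CPM in GDel2 and 0.93 ± 0.23 CPM in WT. In GDel1 against WT edgeR called no gene of these 6 lists. An unadjusted p under 0.05 was found for 1 pentose phosphate gene, 2 glycogen genes, 1 factor, 8 stem cell markers, 2 derivative markers and 2 feeder markers. These stand beside 3776 of all 15421 genes tested.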
